A study of Homo sapiens with 6 samples.

Results

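The 46 small-subunit ribosome biogenesis factors are the proteins that build the small-subunit (SSU) processome and mature the 40S subunit. They were chosen by name, as the genes whose symbol in the count table equals 1 of a fixed list of 46, and all 46 were found among 30270 genes in the table. All 46 also passed the filter on low counts, which left 23952 genes. Their mean counts per library ran from 327 for NOC4L to 11106 for HEATR1. The lowest count of any member in any library was 166, so no member was close to being left out by the filter.

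The SSU processome forms on the nascent ribosomal RNA precursor in the nucleolus, where the U3 small nucleolar RNA pairs with the precursor and a series of protein modules joins it. Helicases, a GTPase and nucleases then take the particle apart, the precursor is cut, and a pre-40S particle leaves for the cytoplasm, where the last cut makes mature 18S rRNA. These genes are expressed in nearly all growing cells, and many of them are known targets of the transcription factor MYC, which binds the E-box CACGTG.

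The libraries came from HEK 293T, an embryonic kidney line that carries the SV40 large T antigen and is grown in serum-containing medium. One group of 3 libraries was wild type (WT) and the other group of 3 was labelled a TENT3A/B double knockout, here ΔTUT4/7, after the study's names for the 2 terminal uridylyltransferases. Neither group received a treatment, and both groups were prepared from total RNA after ribosomal RNA reduction. The labels gave a single set of entries for each genotype, so each group stands for 1 line, and the number of clones behind the knockout is not given in the sources used here. The study asked how the transcriptome changes without both enzymes.

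The libraries held between 18757228 and 33148937 counts. The targeted genes did not both follow the label: TUT7 was at a mean of 62.6 CPM (estimated counts scaled to a common library total) in WT and 26.3 in the libraries labelled ΔTUT4/7, whereas TUT4 was at 211 and 906 CPM, a log2 fold change of 2.10 ± 0.04 (SE, n = 3 per group; adjusted p = 7.89e-19, edgeR). Gene-level counts outside a deleted part do not check a deletion, and the name ΔTUT4/7 here stands for the libraries that carry this label. The 4 markers checked for HEK 293T-type cells were all detected, KRT8 and PAX2 at low counts of 54 to 377 and 25 to 69 per library. They differed between the groups: VIM and KRT18 rose by 1.33 ± 0.04 and 0.54 ± 0.06 on the log2 scale, and KRT8 and PAX2 had log2 fold changes of -1.54 ± 0.18 and -0.56 ± 0.23 (adjusted p from 5.22e-16 for VIM to 0.0409 for PAX2, edgeR). Their part in the members' values was not tested. Of the 6 markers of other cell types, CD68, PECAM1 and ALB had between 0 and 8 counts per library and PTPRC, CDH5 and CD3E were not analysed here.

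Promoter sequences are shown first, because the choice of members did not use them. RefSeq promoter windows of 300 bases (assembly GRCh38.p14, 250 bases before the gene start and 50 after it) were found for 39 of the 46 members, in 40 windows, as IMP4 had 2 starts. DCAF13, DDX52, MPHOSPH10, NOL10, NOP58, RRP12 and UTP23 had no entry. The letters CACGTG, which read the same on both strands, occurred in 18 of the 40 windows. The 5 members with the largest change among those with an E-box between 25 bases before and 50 after the start were UTP20, DHX37, NOL6, RRP9 and PWP2. Their windows of 30 bases are printed 5′ to 3′ with the E-box in capitals and the position of its first base counted from the start, which is +1.
UTP20, chr12:101280083-101280112, plus strand, E-box from -10: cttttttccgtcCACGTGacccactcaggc
DHX37, chr12:124989082-124989111, minus strand, E-box from +42: ggagttggtggtctgggaaccCACGTGggc
NOL6, chr9:33473894-33473923, minus strand, E-box from +14: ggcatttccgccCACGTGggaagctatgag
RRP9, chr3:51941892-51941921, minus strand, E-box from -5: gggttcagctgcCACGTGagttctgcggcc
PWP2, chr21:44107388-44107417, plus strand, E-box from +2: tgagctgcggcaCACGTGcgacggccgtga
The 5 with the smallest change in the same stretch were UTP18, WDR43, RCL1, FBL and LTV1, shown to compare their E-boxes with those above.
UTP18, chr17:51260538-51260567, plus strand, E-box from +5: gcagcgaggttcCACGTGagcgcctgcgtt
WDR43, chr2:28894658-28894687, plus strand, E-box from +4: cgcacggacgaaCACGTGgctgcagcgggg
RCL1, chr9:4792936-4792965, plus strand, E-box from +5: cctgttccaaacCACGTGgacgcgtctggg
FBL, chr19:39846356-39846385, minus strand, E-box from +7: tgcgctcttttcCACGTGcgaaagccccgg
LTV1, chr6:143843354-143843383, plus strand, E-box from +29: gtcctggggctgCACGTGtggtgaggccta
The E-box stood at nearly the same place in UTP18, WDR43, RCL1 and FBL, within the first 12 bases of the gene, and letters next to it differed from gene to gene. In UTP20, the member with the smallest p, it lay just before the start, at the end of the 250 upstream bases at chr12:101279855-101280104 (plus strand), shown as its promoter context.
UTP20 upstream: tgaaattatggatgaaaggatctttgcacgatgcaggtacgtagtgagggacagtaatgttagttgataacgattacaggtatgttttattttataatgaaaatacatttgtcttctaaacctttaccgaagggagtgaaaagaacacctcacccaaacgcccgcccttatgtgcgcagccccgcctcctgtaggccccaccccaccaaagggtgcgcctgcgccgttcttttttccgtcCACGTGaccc

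Transcripts of small-subunit factors were higher in the libraries labelled ΔTUT4/7 as a group. Of the 46 members, 45 rose at a false discovery rate (FDR) under 0.05 (edgeR quasi-likelihood test, Benjamini-Hochberg over all 23952 genes), against 28.6% of all tested genes. The remaining member, UTP3, fell, as did 29% of all tested genes. Changes of 2-fold or more upward were called for 15 members, against 5.9% of all tested genes. Downward, 0 members reached 2-fold, against 12.4% of all tested genes. Every ΔTUT4/7 library lay above every WT library for 45 members, against 30.9% of all tested genes. The median log2 fold change of the members was 0.75 (quartiles 0.60 and 1.11), which is 1.68-fold, beside a median of -0.02 over all tested genes.

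The background was higher among coding genes and among well-expressed genes. Of tested protein-coding genes 37.9% rose, with a median of 0.05, and of all tested genes averaging at least 50 counts 39.2% rose, with a median of 0.06. Added together, the members took 3564, 3605 and 3698 CPM of the WT libraries and 6250, 6370 and 6265 CPM of those labelled ΔTUT4/7. Every CPM is a share of a library scaled by TMM, so more RNA of a gene per cell and less RNA of the other genes cannot be told apart here. The spread behind these values was small: the coefficient of variation of a member over 3 libraries had a median of 5.05% in WT and 3.30% in ΔTUT4/7, and reached 12% for DHX37 in WT and 13.9% for PWP2 in ΔTUT4/7.

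**Figure D1:**
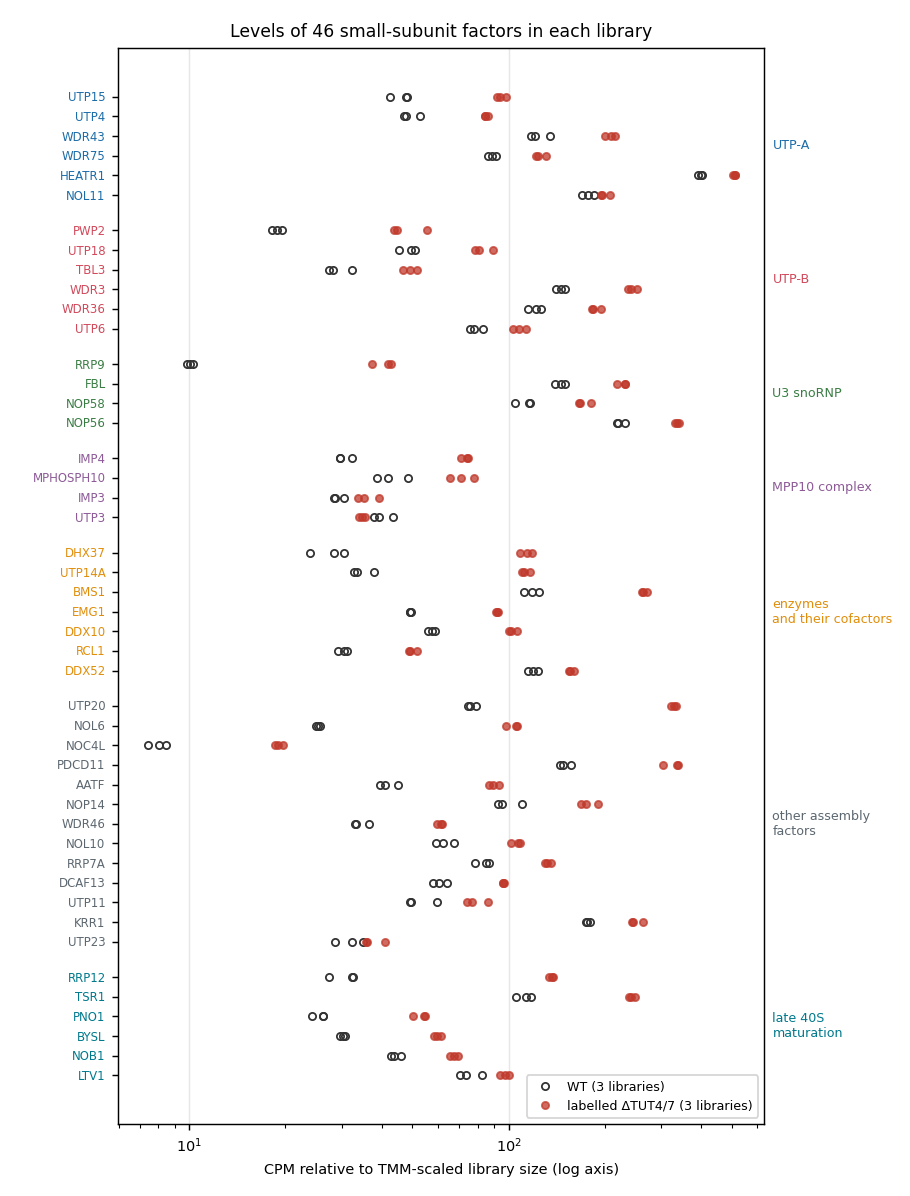
CPM in TMM-scaled libraries (log axis) of the 46 members in each library, by role, with WT libraries as open circles and libraries labelled ΔTUT4/7 as filled circles. The groups are apart for all 46, and only UTP3 has its filled circles on the lower side.

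The UTP-A module binds the precursor first and, in human cells, also takes part in transcription of the ribosomal DNA. All 6 of its members rose, with a median log2 fold change of 0.62, and 1 of them, UTP15, reached 2-fold. UTP15, a WD-repeat protein (chromosome 5, 73565443 to 73583380, hg38), was at 42.6, 48.1 and 47.6 CPM in WT and 91.7, 97.8 and 93.8 CPM in ΔTUT4/7. The 2 ranges are far apart, and the log2 fold change was 1.03 ± 0.06 (adjusted p = 1.52e-12, edgeR). UTP4, WDR43, WDR75 and HEATR1 rose by 0.79, 0.74, 0.50 and 0.36 on the log2 scale. NOL11, the partner of UTP4 in this module (chromosome 17, 67717931 to 67744531), was at 177, 186 and 170 CPM in WT and 196, 208 and 195 CPM in ΔTUT4/7. Its groups did not overlap, and it had the smallest change of the 45 that rose, with a log2 fold change of 0.17 ± 0.05 (adjusted p = 0.00400, edgeR). NOL11 lost its call with library size alone as the scale (adjusted p = 0.374, edgeR), with 50 counts required on average (0.0569), and in limma on log2(CPM + 1) (0.0645).

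UTP-B, a module of 6 proteins most of which carry WD repeats, lies beside the U3 RNA in the processome. All 6 members rose, with a median of 0.75. PWP2, a WD-repeat scaffold (chromosome 21, 44107373 to 44131181), was at 18.8, 19.5 and 18.2 CPM in WT and 43.6, 44.6 and 55.6 CPM in ΔTUT4/7. One ΔTUT4/7 library, replicate 3, was above the other 2, and all 3 were more than 2 times the highest WT value. The log2 fold change of PWP2 was 1.34 ± 0.09 (adjusted p = 2.41e-10, edgeR). UTP6, the HAT-repeat member (chromosome 17, 31860904 to 31901708), was at 77.8, 75.6 and 83.1 CPM in WT and 103, 113 and 108 CPM in ΔTUT4/7. It had the smallest change of the module, 0.45 ± 0.05 (adjusted p = 1.93e-07, edgeR), again without overlap. UTP18, TBL3, WDR3 and WDR36 lay between, from 0.62 to 0.76.

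The U3 small nucleolar ribonucleoprotein (snoRNP) contains NOP56, NOP58 and FBL, which it shares with other box C/D particles, and RRP9, which is found in U3 alone. RRP9 (chromosome 3, 51933429 to 51941904) was at 9.83, 10.2 and 10.1 CPM in WT and 41.9, 42.7 and 37.4 CPM in ΔTUT4/7. This was a 4.05-fold rise in CPM, with a log2 fold change of 2.02 ± 0.08 (adjusted p = 7.02e-15, edgeR). The 3 shared proteins had smaller changes, close to each other: NOP56, NOP58 and the methyltransferase FBL had log2 fold changes of 0.59 ± 0.04, 0.61 ± 0.05 and 0.64 ± 0.05. For NOP56 (chromosome 20, 2652593 to 2658393) the values were 220, 219 and 232 CPM in WT and 336, 343 and 333 CPM in ΔTUT4/7 (adjusted p = 1.24e-10, edgeR). Neither the differences among these 3 nor their distance from RRP9 was tested.

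The MPP10 complex joins MPHOSPH10 with IMP3 and IMP4, which help U3 pair with the precursor, and with UTP3, the human Sas10. IMP4 (chromosome 2, 130342877 to 130347967) was at 29.6, 29.7 and 32.4 CPM in WT and 73.9, 70.9 and 74.7 CPM in ΔTUT4/7. Its groups were far apart, with a log2 fold change of 1.26 ± 0.06 (adjusted p = 1.14e-13, edgeR). MPHOSPH10 rose by 0.73 ± 0.08 and IMP3 by 0.30 ± 0.07 on the log2 scale. UTP3, a gene of a single exon (chromosome 4, 70688532 to 70690551), was at 39.4, 37.8 and 43.4 CPM in WT and 34.6, 35.4 and 34.0 CPM in ΔTUT4/7. All 3 ΔTUT4/7 values lay below all 3 WT values, by a small margin, and the log2 fold change was -0.22 ± 0.07 (adjusted p = 0.00816, edgeR). In every refit UTP3 stayed lower at an FDR under 0.05, with log2 fold changes of -0.33 to -0.16. Genes around UTP3 on chromosome 4 were lower as well by their median. The 19 tested genes within 5 Mb that were no members and averaged at least 50 counts had a median of -0.63. After subtracting this median the value of UTP3 was 0.42.

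Of the 7 enzymes and their cofactors all rose, with a median of 0.90, and 3 reached 2-fold. DHX37, the helicase that releases U3 from the particle (chromosome 12, 124946825 to 124989131), was at 30.4, 24 and 28.3 CPM in WT and 118, 108 and 114 CPM in ΔTUT4/7. Its log2 fold change was 2.05 ± 0.07 (adjusted p = 4.47e-14, edgeR). The cofactor that activates DHX37, UTP14A (chromosome X, 129906121 to 129929761), rose by 1.69 ± 0.06, and the GTPase BMS1 (chromosome 10, 42782795 to 42834937) by 1.17 ± 0.05. The rRNA methyltransferase EMG1, the DEAD-box protein DDX10 and the BMS1 partner RCL1 rose by 0.90, 0.83 and 0.71. DDX52, a DEAD-box helicase (chromosome 17, 37609739 to 37643446), was at 115, 120 and 124 CPM in WT and 155, 161 and 155 CPM in ΔTUT4/7. Its change was the smallest of the 7, 0.39 ± 0.05 (adjusted p = 2.05e-07, edgeR), with groups well apart.

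BMS1 and UTP14A have near-identical copies in the genome, and reads can be split between them by the estimated counts. The 14 listed copies of BMS1 together held 98.1% as many counts as BMS1 in WT and 47.1% in ΔTUT4/7. UTP14C, a retrocopy of UTP14A, held 91.9% of the UTP14A count in WT and 16.6% in ΔTUT4/7, and its own log2 fold change was -0.83 ± 0.19 (adjusted p = 0.0103, edgeR). With copies and parent added together, in an alternative chosen after seeing the data, BMS1 had a log2 fold change of 0.74 ± 0.04 and UTP14A of 0.96 ± 0.05. Both kept an FDR under 0.05 and fell under 2-fold, which leaves 13 members at 2-fold. RRP7BP held 49.7% of the count of its parent RRP7A in WT and 29% in ΔTUT4/7, and the sum changed by 0.45 ± 0.05 against 0.67 ± 0.05 for RRP7A alone. For DCAF13, NOP56, DDX10, KRR1, LTV1 and FBL, adding the copies moved the log2 fold change from 0.66 to 0.67 for DCAF13 and by less for the rest.

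The 13 other assembly factors all rose, with a median of 0.83, and 5 of them by 2-fold or more. UTP20, a HEAT-repeat protein that spans the particle (chromosome 12, 101280105 to 101386618), was at 78.8, 74.5 and 75.6 CPM in WT and 324, 336 and 331 CPM in ΔTUT4/7. With groups this far apart and this tight, its log2 fold change of 2.11 ± 0.05 had the smallest adjusted p of the 46, 9.21e-19 (edgeR). NOL6, which joins RRP7A in the processome (chromosome 9, 33461353 to 33473930), was close behind at 2.04 ± 0.06. RRP7A itself rose by 0.67. NOC4L rose by 1.26 ± 0.10 and its partner NOP14 by 0.84 ± 0.06, and the scaffold PDCD11 by 1.12. AATF rose by 1.10, WDR46 by 0.83, NOL10 by 0.74, DCAF13 by 0.66, UTP11 by 0.58 and KRR1 by 0.51 on the log2 scale.

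UTP23, a PIN-domain protein of the early particle, had the smallest change of these 13. It was at 28.7, 35.0 and 32.2 CPM in WT and 35.9, 41.1 and 35.8 CPM in ΔTUT4/7, so the highest WT library was less than 1 CPM below the lowest ΔTUT4/7 library. The log2 fold change was 0.23 ± 0.08 (adjusted p = 0.0159, edgeR). The call was lost without WT replicate 1 and without ΔTUT4/7 replicate 2 (adjusted p = 0.103 in both, edgeR), with library size alone (0.218), with 50 counts required on average (0.0663) and in limma (0.0778). UTP23 also overlaps exons of RAD21 on the opposite strand, over 11.0% of its exon bases, and RAD21 held 1106% of the UTP23 count.

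**Figure D2:**
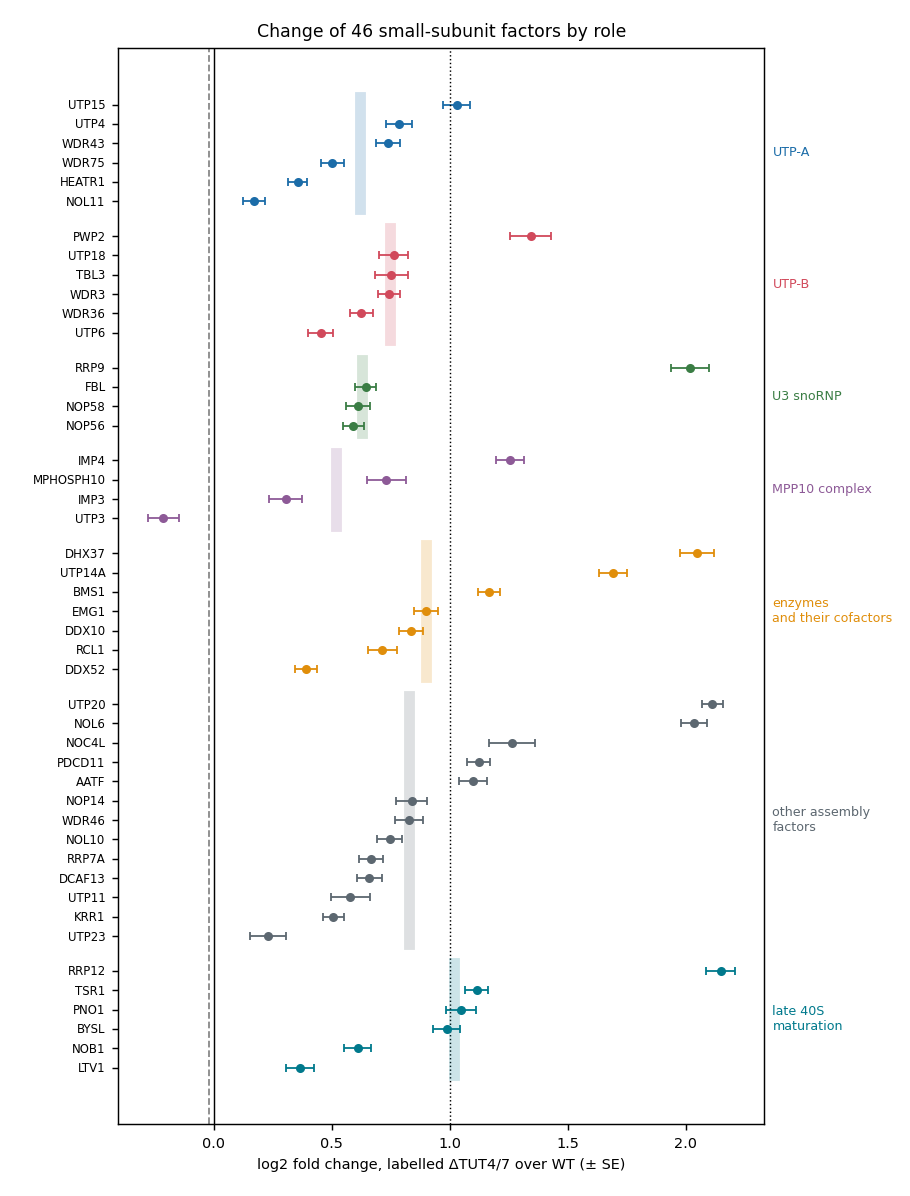
Log2 fold change (ΔTUT4/7 over WT, ± SE from the edgeR test) of each of the 46 members by role, with role medians as shaded bars, 2-fold as a dotted line and the median of all tested genes, -0.02, as a dashed line. Of the 46, 15 lie at or past the dotted line and UTP3 alone lies under 0.

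The 6 late factors act on the pre-40S particle, at its export and at the last cut in the cytoplasm. All 6 rose, with a median of 1.02, and 3 reached 2-fold. RRP12, a HEAT-repeat export factor (chromosome 10, 97356358 to 97426076), was at 32.5, 27.5 and 32.3 CPM in WT and 138, 134 and 137 CPM in ΔTUT4/7. Its log2 fold change of 2.15 ± 0.06 (adjusted p = 4.34e-17, edgeR) was the largest of the 46, and UTP20, DHX37, NOL6 and RRP9 followed at 2.02 to 2.11. TSR1, a BMS1-like protein that has lost GTPase activity, rose by 1.11 and PNO1, the partner of NOB1, by 1.05. BYSL, at 0.99 ± 0.06, was the member just under 2-fold, as UTP15 at 1.03 ± 0.06 was just over it. NOB1, the endonuclease of the last cut, rose by 0.61. LTV1, which leaves the particle before its last steps (chromosome 6, 143843338 to 143863812) was at 70.2, 73.4 and 82.4 CPM in WT and 97.5, 100.4 and 93.7 CPM in ΔTUT4/7. The groups did not overlap and the log2 fold change was 0.36 ± 0.06 (adjusted p = 1.33e-05, edgeR).

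Log2 fold changes varied within each of the 7 role groups. The smallest and the largest of a group were picked from the same values, so their distance is a description only. They were closest in UTP-A, at 0.17 and 1.03, and furthest apart in the other assembly factors, at 0.23 and 2.11. Direct partners such as NOC4L and NOP14, or NOB1 and PNO1, rose by unequal amounts, and no difference between members was tested.

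Levels between genes were compared as CPM per kilobase of the Ensembl canonical transcript. In WT the highest were the shared snoRNP proteins FBL at 129 ± 4.77 and NOP56 at 117 ± 3.66, with NOL11 next at 62.5 ± 2.73 (SD, n = 3). The lowest were TBL3 at 4.32 ± 0.39, NOC4L at 4.83 ± 0.32 and NOL6 at 5.22 ± 0.07 CPM per kilobase. This order depends on 1 transcript length per gene, and which transcripts were expressed was not checked. Before division by length, the WT means were 29.3 CPM for TBL3 and 7.96 CPM for NOC4L. FBL and NOP56 were apart by more than their SDs, and TBL3 and NOC4L overlapped within theirs. The level of the highest member was 29.9 times that of the lowest in WT and 27.9 times in ΔTUT4/7. Across the 46 genes, which are not independent replicates, the order of levels in WT and in ΔTUT4/7 had a Spearman correlation of 0.83. Members with a high WT level tended to have a smaller log2 fold change (Spearman correlation -0.62, n = 46 genes of the same 6 libraries), a relation in which the WT level enters both measures. Transcript length and log2 fold change had a Spearman correlation of 0.15.

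The members lie on 19 chromosomes, and their changes were set beside those of the genes around them. Neighbours were tested genes outside the members that averaged at least 50 counts and started within 5 Mb of the member's start. Their medians, over 15 to 188 genes per member, ran from -0.65 for LTV1 to 0.78 for DHX37. For 9 members the median was further than 0.5 from 0. Member and neighbourhood values went together, with a Spearman correlation of 0.63 across the 46 genes. After the neighbourhood median was subtracted, all 46 members were above 0, with a median of 0.70, and 11 were at 1 or more on the log2 scale. PWP2, BMS1, NOC4L, PDCD11 and TSR1 dropped under 1, with NOC4L at 0.58, and LTV1 rose to 1.01. HEATR1 and NOL11, in neighbourhoods that were lower, came to 0.88 and 0.68. This subtraction has no test and was not made for genes outside the members, so its counts have no background share. Copy number was not measured.

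**Figure D3:**
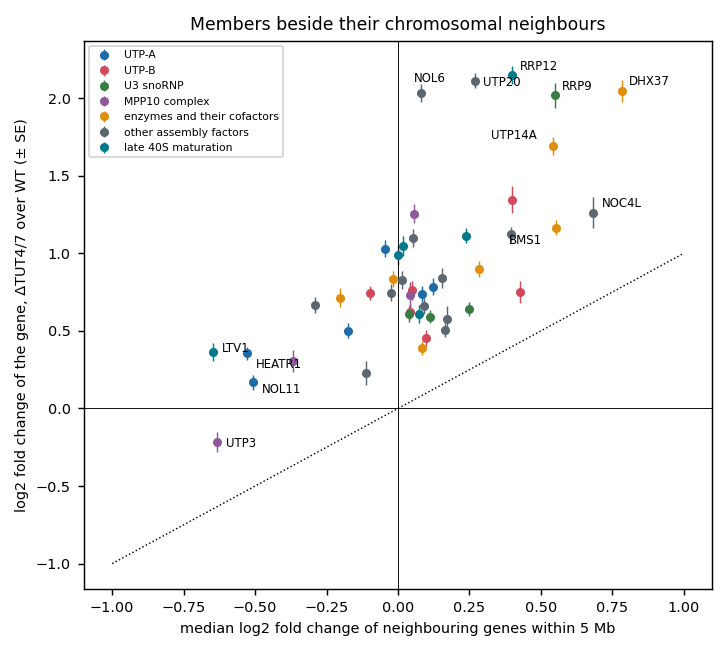
Log2 fold change of each member (± SE) against the median log2 fold change of its neighbours, coloured by role, with the dotted line where both are equal. Neighbours are tested genes within 5 Mb, outside the members, that averaged at least 50 counts. All 46 points lie above the line, and UTP3 is the only point below 0 on the vertical axis. Genes outside the members were not set beside their neighbours in this way.

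Some members overlap other genes, which limits single values. In 10 members an expressed gene on the opposite strand covers exon bases, and the strand setting of the counting is not given in the sources used here. The largest overlaps were LPCAT3 with 55.5% of the exon bases of EMG1, SNX33 with 31.7% of IMP3, SRR with 23.9% of TSR1 and LGALS8 with 23.1% of HEATR1. LPCAT3 rose by 0.49 ± 0.07. SNX33 had a log2 fold change of -1.01 ± 0.08, SRR of -0.80 ± 0.10 and LGALS8 of 0.04 ± 0.06, so the partners did not move as one. Their part in the values of EMG1, IMP3, TSR1 and HEATR1 was not tested. Introns of 5 members, WDR43, NOL11, NOP56, NOP58 and TSR1, hold 15 annotated snoRNAs.

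Most other assembly genes of the pathway rose too. Of 30 further SSU factors, 25 (83.3%) rose, 3 fell and 2 did not pass the test. Their median was 0.61, and 4 (13.3%) were at 2-fold or more. Among all tested genes 28.6% rose, and 5.9% rose by 2-fold or more. NOLC1, a chaperone of snoRNPs, had 209, 201 and 237 CPM in WT and 558, 580 and 574 CPM in ΔTUT4/7, and rose by 1.40 ± 0.05 on the log2 scale (adjusted p = 2.21e-14, edgeR). DDX21, a nucleolar helicase, had 1.32 ± 0.04. CSNK1D, a kinase acting on the late particle with many other substrates, was lowest at -0.45 ± 0.05 (adjusted p = 5.68e-08, edgeR). Of 65 large-subunit factors 59 (90.8%) rose and 2 fell, with a median of 0.79. Of 15 genes of the RNA polymerase I machinery 12 (80%) rose and 0 fell, with a median of 0.63.

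The 32 small-subunit ribosomal protein genes, whose products the members assemble, had a median of 0.11. Of these, 15 (46.9%) rose, against 28.6% of all tested genes and 39.2% of those averaging at least 50 counts. Another 6 fell and 11 did not pass the test, and 0 rose by 2-fold. The summed level of these 32 genes was 12484, 12540 and 13094 CPM in WT and 13375, 13908 and 13069 CPM in ΔTUT4/7. The groups overlapped only in that WT replicate 3 lay above ΔTUT4/7 replicate 3, while the summed levels of the members did not overlap. Of 12 proliferation genes 7 (58.3%) rose and 3 fell, with a median of 0.18. MYC was at 55.9, 54.8 and 63.0 CPM in WT and 110, 105 and 108 CPM in ΔTUT4/7, and rose by 0.89 ± 0.06 on the log2 scale (adjusted p = 1.25e-11, edgeR). Its part in the members' change was not tested.

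**Figure D4:**
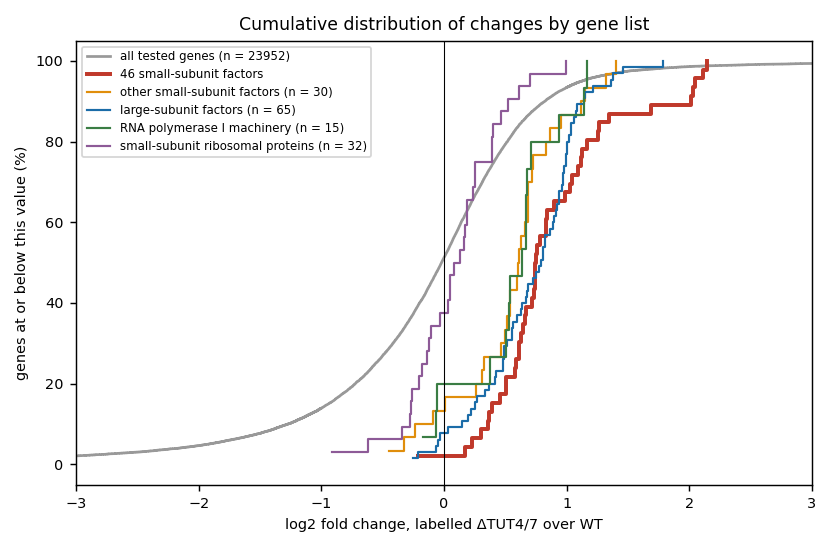
Cumulative percentage of genes at or below each log2 fold change (ΔTUT4/7 over WT), for all 23952 tested genes, the 46 members and 4 other gene lists. The curve of the members lies to the right of all tested genes throughout the plotted changes up to 2, while the small-subunit ribosomal proteins cross 50% at about 0.11.

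The promoter letters were counted in all windows of the same length. Windows with an E-box made up 45% of the 40 member windows, 8.87% of the 18226 windows of tested genes and 7.26% of all 35116. The E-boxes of the members were gathered at the start: an E-box beginning in bases +1 to +50 was in 13 of 40 member windows, 32.5%, and in 0.977% of the windows of tested genes. The related lists shared part of this, with 16.2% of windows in large-subunit factors and 11.1% in other SSU factors. Small-subunit ribosomal proteins had 3.57% and the RNA polymerase I machinery 0%. This split at the start was chosen after seeing the positions. In bins of 25 bases, +1 to +25 held an E-box in 22.5% of member windows against 0.647% of tested windows. The GC content of the windows was alike, with medians of 63.5% and 64.0%.

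**Figure D5:**
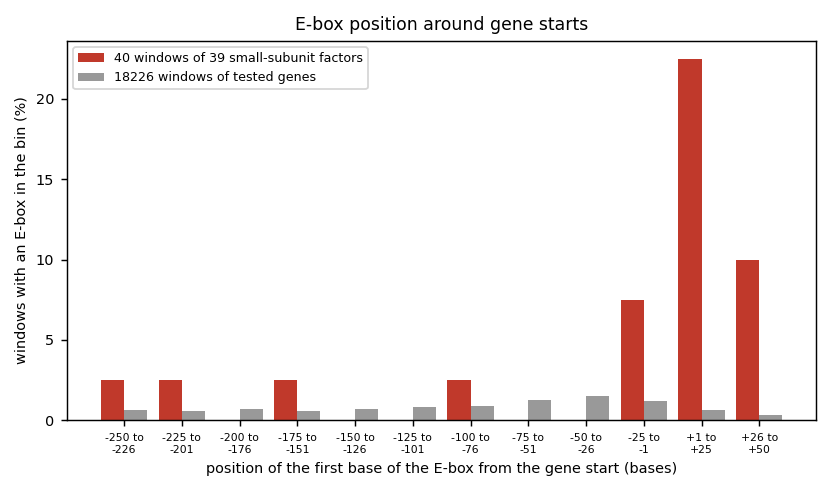
Percentage of windows with an E-box whose first base falls in each bin of 25 bases from the gene start, for 40 windows of 39 members and 18226 windows of tested genes. The members reach 22.5% at +1 to +25, while the tested genes do not pass 1.51% in any bin.

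Other motifs, searched on both strands and with no motif contained in another, differed less. The ETS motif CCGGAAG was in 40% of member windows and 15% of tested windows, CCAAT in 47.5% and 34.6%, and TATAAA in 7.5% and 7.29%. The ETS share was higher still in other SSU factors, 44.4%, large-subunit factors, 45.6%, and the RNA polymerase I machinery, 57.9%. In small-subunit ribosomal proteins it was 32.1%. The E-box share was 33.3% of windows in the other SSU factors and 30.9% in large-subunit factors, but 7.14% in small-subunit ribosomal proteins and 5.26% in the RNA polymerase I machinery.

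The 18 members with an E-box had a median log2 fold change of 1.02, from 0.36 for LTV1 to 2.11 for UTP20, and 9 of them were at 2-fold or more. The 21 members with an entry and no E-box had a median of 0.62, from -0.22 for UTP3 to 1.26 for NOC4L, and 5 were at 2-fold or more. The 2 ranges overlap over most of their length, and the difference was not tested. UTP14A, among the 9, and BMS1, among the 5, fell under 2-fold when their copies were added. Of 12588 tested genes outside the members with an entry, 37.1% rose and 32.9% fell, with a median of 0.03. Of the 1482 of these with an E-box at any position, 44.3% rose and 28.2% fell, with a median of 0.13. With the E-box after the start, the split chosen after seeing the positions, 53.7% of 164 genes rose and 20.1% fell, with a median of 0.24. Leaving out the genes of every list used here left 149 of these, of which 50.3% rose and 21.5% fell, with a median of 0.20. In the members this split went the other way. The 13 members with an E-box after the start had a median of 0.84, under the 1.02 of all 18 with an E-box. Of these 13, 5 were at 2-fold or more. None of these differences was tested. A match of letters is not a site of binding, and no binding was measured here.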

How the data were processed

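Total RNA of 3 WT and 3 ΔTUT4/7 HEK 293T libraries was sequenced after rRNA reduction. Per the labels, the authors aligned reads to hg38 with STAR 2.7.3a and quantified genes in Partek 10.0.22. The deposited table holds estimated counts from an expectation-maximisation model, which shares reads between similar or overlapping genes, and 45.2% to 50% of values in a library were not whole. Estimated counts were rounded, and genes whose largest count over 6 libraries was above 12 were tested (23952 of 30270). Columns left unmapped numbered 0. A deposited table of the authors' own comparison (p-value, FDR, ratio, fold change and least-squares means) was not used.

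Counts were scaled by TMM and tested with edgeR 4.0.16 (R 4.3.3; glmQLFit, robust, glmQLFTest, no covariate besides group). P-values were adjusted by Benjamini-Hochberg across the whole table, with a threshold of 0.05. The error given for a log2 fold change is its SE, taken as its absolute value over the square root of the test's F statistic. CPM are given per library or as mean ± SD. The biological coefficient of variation was 6.44%. The replicates are labelled biological replicates of 1 line per group, so p-values measure only the spread between these 3 libraries. No 2 libraries agreed within sampling noise (chi-square per degree of freedom 2.43 to 10.2 within groups). The steps were tested on simulated data.

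Members and lists were chosen with earlier results of these data known, so no list was tested as a set. Values in every library are given for the largest and smallest change in each role and for members not called higher. TUT4, TUT7, MYC, the ends of the further SSU factors, the 3 highest and 3 lowest levels and the copies of members are also named, and the remaining members are given by their log2 fold change. Gene positions are those of the deposited table, with 1 base taken off the end. The start equalled that of GENCODE 44 for 41 of the 46 members and the end for 44. Alternatives were library size alone, RLE scaling, no count filter, an average of at least 50 counts, DESeq2 1.42.0, limma 3.58.1 on log2(CPM + 1), a replicate block, leaving out libraries one by one, neighbours subtracted and, added after seeing the data, copies summed with their parent.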

Additional observations from a re-analysis of the deposited data

How the results depend on the processing

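The number of members higher at an FDR under 0.05 was 43 to 45 over all refits, 44 to 45 with each library left out. The number at 2-fold or more was 11 with library size alone, 13 when an average of 50 counts was required, 11 with neighbours subtracted, 13 with copies added and 14 to 16 with each library left out. The median log2 fold change of the members, 0.75 as reported, was 0.63 with library size alone, where the median of all tested genes went from -0.02 to -0.13. It was 0.69 when an average of 50 counts was required, 0.70 with neighbours subtracted and 0.73 to 0.79 with each library left out. DESeq2, RLE scaling and no count filter left both counts as they were. NOL11 and UTP23 were the only members to lose a call, and UTP3 the only one to turn direction, to 0.42 with neighbours subtracted; the cause was not tested.

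Same-numbered libraries did not deviate together (correlations of 0.05, -0.01 and -0.02 over 15575 genes), and WT replicates 2 and 3 correlated best with another number. The labels give only a replicate number, and whether same-numbered libraries were handled together was not tested. With the replicate number as a block, 45 members rose, 15 by 2-fold or more, with a median of 0.75. The standard errors of 0.04 to 0.10 limit changes near 0.2 on the log2 scale, as in NOL11, UTP23 and UTP3. Groups of 3 are too small for a test of single outlying libraries.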
